A study of Mus musculus with 8 samples.

Results

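The 40 genes described here encode synaptic adhesion molecules, the membrane proteins that join the presynaptic and postsynaptic sides of a synapse. They are grouped by family: neurexins, neuroligins, the Lrrtm, Caspr, contactin, Slitrk, Flrt and Elfn families, receptor phosphatases of the LAR group, latrophilins, teneurins and 2 IL-1 receptor accessory proteins. They are 40 of the 21627 protein-coding genes with a span on chromosomes 1 to 19 or X in the mouse assembly GRCm38.p6, the RefSeq counterpart of mm10. Each was measured over its span and 20 kb to each side. Of the 40, 39 had a mean of at least 500 called bp over the 8 libraries and entered the tests, beside 14851 genes tested in all. Slitrk6 did not.

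The data were 8 lists of peaks of histone H3 acetylated at lysine 27 (H3K27ac), a mark of active promoters and enhancers, from cultured neurons of C57/BL6 mouse embryos. There were 2 cultures, CTX and MGE, and 2 treatments, with 2 libraries in each of the 4 groups. MGE, which the labels do not spell out, usually stands for the medial ganglionic eminence, an embryonic source of cortical GABAergic interneurons. All 4 groups, controls included, spent the night after day 6 in vitro in 1 µM TTX, which blocks sodium channels, plus 100 µM D-AP5, which blocks NMDA receptors. On day 7 the KCl groups were depolarised with 55 mM KCl for 2 h and the unstimulated groups were left untreated. The labels give the embryos as day 16 in all libraries, but the CTX titles say day 14, and the cell type field reads cortical neurons for MGE too. Replicates are called biological without saying what was kept separate. The p-values rest on library-to-library spread, pooled in part over all genes tested, and some of this spread can be technical.

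Synaptic adhesion molecules work as pairs across the cleft. Presynaptic neurexins bind neuroligins, Lrrtm proteins and other ligands, presynaptic LAR-type phosphatases bind Slitrk proteins and IL-1 receptor accessory proteins, and latrophilins bind teneurins and Flrt proteins. Which pairs a neuron carries helps to set whether a contact becomes excitatory or inhibitory. Many of these genes are long, with regulatory elements spread through their introns.

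The value used is the length inside called peaks in a gene's window, in bp per Mb called in that library. The lists covered 21.1 to 44.7 Mb in 36035 to 66827 peaks. The second CTX libraries stood apart, with 44.7 Mb called after KCl and 42.9 Mb unstimulated, while the other 6 had 21.1 to 32.0 Mb. Read depth is unknown, since the lists hold no counts. Each list holds only what passed the peak caller's limit, so absence of a peak is not absence of acetylation. For the tests 10 was added to each value before taking log2, which understates differences of low genes. In a mixed culture, fewer cells with an acetylated region and less acetylation per cell cannot be told apart. The 40 windows together held 7271 and 8169 bp per Mb in KCl-treated CTX libraries, 7379 and 7579 in unstimulated CTX, 9886 and 9978 in KCl-treated MGE and 8897 and 8722 in unstimulated MGE. Every MGE library was thus above every CTX library for the summed value.

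The 5 stretches below lie before listed transcript starts and show both cases met below: those of Slitrk2 and Nrxn3 had peaks that differed between groups, and those of Tenm3 and Cntn3 had no peak at all. Each is the 250 bases before the start, 5′ to 3′, from RefSeq on GRCm38.p6, with the letters TGACGTCA, the cAMP response element (CRE), in capitals where they occur.
Slitrk2, first start, plus strand, chrX:66649068-66649317: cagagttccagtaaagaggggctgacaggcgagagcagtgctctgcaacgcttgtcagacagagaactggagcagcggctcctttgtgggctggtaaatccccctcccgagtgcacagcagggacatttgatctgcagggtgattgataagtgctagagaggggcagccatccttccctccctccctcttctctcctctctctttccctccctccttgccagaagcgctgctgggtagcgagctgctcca
Slitrk2, second start, plus strand, chrX:66652909-66653158: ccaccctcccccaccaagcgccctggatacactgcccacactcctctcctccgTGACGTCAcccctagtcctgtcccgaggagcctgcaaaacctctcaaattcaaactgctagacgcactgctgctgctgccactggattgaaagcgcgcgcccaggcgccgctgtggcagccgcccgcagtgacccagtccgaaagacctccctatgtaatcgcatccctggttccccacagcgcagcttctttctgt
Tenm3, minus strand, chr8:48674691-48674940: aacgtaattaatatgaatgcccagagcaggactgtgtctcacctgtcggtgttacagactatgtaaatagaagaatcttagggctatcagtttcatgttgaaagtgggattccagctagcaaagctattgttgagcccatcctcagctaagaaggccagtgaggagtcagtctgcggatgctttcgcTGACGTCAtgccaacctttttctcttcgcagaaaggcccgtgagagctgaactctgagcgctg
Nrxn3, most downstream start, plus strand, chr12:89812233-89812482: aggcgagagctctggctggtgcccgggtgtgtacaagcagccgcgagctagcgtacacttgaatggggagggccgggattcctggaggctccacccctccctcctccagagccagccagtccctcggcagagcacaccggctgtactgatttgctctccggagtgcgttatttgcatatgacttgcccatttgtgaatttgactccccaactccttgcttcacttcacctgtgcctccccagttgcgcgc
Cntn3, minus strand, chr6:102464668-102464917: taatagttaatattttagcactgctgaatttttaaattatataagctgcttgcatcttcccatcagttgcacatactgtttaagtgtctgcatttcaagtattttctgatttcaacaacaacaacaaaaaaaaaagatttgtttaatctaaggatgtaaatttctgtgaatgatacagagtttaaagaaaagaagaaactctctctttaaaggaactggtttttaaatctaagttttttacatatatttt
The first start of Slitrk2, a postsynaptic partner of LAR-type phosphatases, lay within 500 bp of a peak in all 4 CTX libraries and in no MGE library. Its second start, where the CRE begins 197 bases before the start, had a peak in both KCl-treated libraries of each culture, in 1 unstimulated CTX library and in no unstimulated MGE library. The listed start of Tenm3 has a CRE beginning 63 bases before it and had no peak in any library. The most downstream start of Nrxn3 had a peak in all 4 MGE libraries and 1 CTX library. Neurexin genes make long and short forms from separate promoters, and which form this start serves was not examined here. The listed start of Cntn3, the gene with the largest difference between cultures, is AT-rich (27.7% GC over 300 bases) and had no peak in any library.

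A listed start was available for 32 of the 40 genes, 46 starts in all. A peak lay within 500 bp of at least 1 start in all 8 libraries for 18 of the 32 genes (56.2%), against 40.1% of the 17273 protein-coding genes with a listed start. In 5 genes no library had one (15.6%, against 41.7%), namely Tenm1, Tenm2, Tenm3, Cntn3 and Adgrl2. The gene span begins upstream of the listed start in these 5, by 34.5 kb in Adgrl2 and up to 848 kb in Tenm3. A peak lay at the 5′ end of the span in all 8 libraries for Tenm2 and Adgrl2, in 4 for Tenm1, in 3 for Cntn3 and in none for Tenm3. Promoter sequence differed with this: the median GC content of the 300-base promoter was 55.3% at the 25 starts with a peak in all 8 libraries and 38.0% at the 7 with none. The 14 starts with a peak in 1 to 7 libraries had 59.2%, and all 21044 listed promoters 56.7%.

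Motifs of 5 kinds were searched in these promoters on both strands. The AP-1 site TGANTCA was in 3 of 46 (6.5%, against 7.0% of all 21044), the CRE TGACGTCA in 3 (6.5%, against 2.3%), the GC box GGGCGG in 16 (34.8%, against 46.7%), the TATA box TATAAA in 5 (10.9%, against 12.7%) and the REST element letters TTCAGCACC in 1 (2.2%, against 0.4%). The 3 promoters with a CRE belonged to Slitrk2, Tenm3 and Ptprs, and in Ptprs the letters lie just past the start. These REST letters were at a start of Nlgn1 that had a peak in all 8 libraries. A match is a run of letters and says nothing of binding.

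Most acetylated length lay away from the listed starts. Of the called length in the windows of the 32 genes, 15.7% to 23.2% per library was within 2 kb of a listed start, 69.6% to 78.6% elsewhere in the gene and 4.4% to 8.0% in the flanks. The members ranged from 4.25 kb (Slitrk1) to 2271 kb (Ptprd), with a median of 138 kb against 24.0 kb for all genes tested, and 14 were longer than 500 kb. Per length, the most densely acetylated were Elfn2, with 7.71% ± 1.70 (SD, n = 8) of its window called, Nrxn2 with 6.38% ± 1.57 and Nlgn2 with 6.09% ± 0.99. The least were Il1rapl2 with 0.06% ± 0.06 and Il1rapl1 with 0.15% ± 0.07. These percentages are not divided by Mb called, and each SD spans both cultures and both treatments, so it is not a spread of replicates. The median over the members tested was 1.94%, against 2.51% for all genes tested. In the compact Slitrk5 98.7% of the called length was near the listed start, in Cntn3 0.0% and in Tenm2 0.1%. The listed start lies 99.9 kb inside the span of Cntn3 and 292.8 kb inside that of Tenm2. Peaks where these 2 spans begin thus count as elsewhere in the gene. The windows of Lrrtm1, Lrrtm2, Lrrtm3, Flrt1 and Flrt3 lie wholly inside Ctnna2, Ctnna1, Ctnna3, Macrod1 and Macrod2, and other genes cover 65.4% of the Cntnap1, 40.5% of the Nlgn2 and 31.8% of the Nlgn3 window. Peaks there cannot be given to 1 of the genes.

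The first comparison asked how the members differ between cultures, over both treatments. Of 39 members, 12 were higher in MGE (10.6% of all genes tested were) and 6 were lower (12.6% of all genes), by limma with Benjamini-Hochberg adjustment over 14851 genes at a threshold of 0.05. Those higher were Cntn3, Cntn4, Cntnap4, Ptprf, Elfn1, Tenm2, Flrt1, Adgrl3, Slitrk4, Slitrk5, Nrxn3 and Cntnap2. Those lower were Slitrk2, Lrrtm3, Adgrl2, Lrrtm1, Cntn1 and Nlgn1. The members' median log2 difference, MGE minus CTX, was 0.21, against 0.12 over all genes tested. With equal called bases in each library these medians were 0.26 and -0.13. All 4 MGE values exceeded all 4 CTX values in 9 members, against 10.5% of all genes, and lay below them in 4, against 10.0%. Without any 1 of the 8 libraries in turn, 11 of the 18 calls were kept, namely Cntn3, Cntn4, Cntnap4, Ptprf, Elfn1, Tenm2, Flrt1, Adgrl3, Nrxn3, Slitrk2 and Lrrtm3. Without the second KCl-treated CTX library the count was 11, 9 higher and 2 lower. With only peaks of a −log10 q of at least 5, 36 members could be tested and 2 passed, Cntn3 higher and Ptprd lower.

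Markers of other cell types moved with culture. Of 14 GABAergic or MGE markers 6 were higher in MGE, Lhx6, Nkx2-1, Sst, Erbb4, Gad2 and Maf, and none was lower, with a summed value of 1594 to 1828 bp per Mb in CTX and 2475 to 2885 in MGE. Of 12 glutamatergic markers tested 9 were lower in MGE and 1, Cux2, was higher (1063 to 1766 against 864 to 1113). Neurod6, a projection neuron factor, had no peak in any MGE library and 33.8 to 88.8 bp per Mb in CTX. Non-neuronal markers differed too. Astrocyte markers were lower in MGE in 3 of 6 (430 to 518 against 194 to 311), Aqp4 with no peak in MGE, oligodendrocyte lineage markers in 5 of 7 with 1 higher (584 to 749 against 241 to 343), and progenitor markers in 3 of 6 (409 to 603 against 231 to 392). Of 2 microglial markers tested 1, Csf1r, was higher in MGE (68.0 to 112 against 138 to 214 for the list), while Cx3cr1 had no peak in any library. Of 3 endothelial and mural markers 1, Pecam1, was lower in MGE (180.0 to 317 against 158 to 235), and Cldn5 had no peak in any library. Of 5 pan-neuronal markers 3 were higher in MGE (1058 to 1366 against 1544 to 1793). Their part in the differences of the adhesion genes was not tested.

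Among presynaptic organisers, Nrxn3 was higher in MGE. Its 1612 kb span (chr12:88722701-90334935) held 829.9 and 874 bp per Mb in the unstimulated CTX libraries and 648 and 842 with KCl, against 1212 and 1089.6 in unstimulated MGE and 1083 and 1247 with KCl. Every MGE library was above every CTX library, and the difference was log2 0.54 ± 0.11 SE, limma adjusted p = 0.00133. The call was lost when libraries were scaled by their median over genes (limma adjusted p = 0.11), and with only peaks of a −log10 q of at least 5 the difference was 0.01 (limma adjusted p = 0.985). Nrxn2 held 376 and 335 in unstimulated CTX, 259 and 270.2 in CTX with KCl, 417 and 373 in unstimulated MGE and 368 and 337 in MGE with KCl, and the cultures overlapped (log2 0.27 ± 0.13 SE, limma adjusted p = 0.147).

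Neuroligins are the best known postsynaptic receptors of neurexins. Nlgn1, which is found mainly at excitatory synapses, was lower in MGE. It held 432 and 348 bp per Mb in unstimulated CTX, 379 and 392 in CTX with KCl, 215 and 266 in unstimulated MGE and 297 and 327 in MGE with KCl. All 4 MGE values were below all 4 CTX values (log2 -0.49 ± 0.14 SE, limma adjusted p = 0.0148). Nlgn2, the neuroligin of inhibitory synapses, held 119.8 and 96.1, then 128 and 86, then 128 and 127, then 138 and 113 in the same order of groups, with overlap between cultures (log2 0.23 ± 0.18 SE, limma adjusted p = 0.394). Nlgn3, found at both kinds of synapse, held 95.5 and 99.8, then 113 and 112, then 96.7 and 128, then 90.6 and 95, also with overlap (log2 -0.04 ± 0.17 SE, limma adjusted p = 0.888). Neither passed the test.

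The Lrrtm proteins are a second group of postsynaptic neurexin ligands, studied mostly at excitatory synapses. Lrrtm3 held 90.2 and 70.6 bp per Mb in unstimulated CTX and 76 and 94.6 with KCl, but 16.8 and 24.9 in unstimulated MGE and 40.5 and 34.5 with KCl. No library of 1 culture overlapped the other, and the difference was log2 -1.28 ± 0.21 SE, limma adjusted p = 0.00022. Lrrtm1 held 69.6 and 65.3 (unstimulated) then 95.2 and 68.4 (KCl) in CTX against 46.6 and 14 (unstimulated) then 61.8 and 52.6 (KCl) in MGE. Again all MGE values were below all CTX values (log2 -0.76 ± 0.25 SE, limma adjusted p = 0.0345), but the call was lost when any of 7 of the 8 libraries was left out. Both windows lie inside α-catenin genes, as said above. The other two, Lrrtm4 and Lrrtm2, did not pass, at log2 differences of 0.47 and 0.38 (limma adjusted p = 0.116 and 0.259).

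Caspr proteins and contactins are axonal and synaptic partners. Cntn3, which encodes a contactin of the axonal surface, differed most of all members. Its window (chr6:102163304-102564614 and 20 kb to each side) held 25.4 and 66.1 bp per Mb in unstimulated CTX, 63 and 85.3 in CTX with KCl, 336 and 351 in unstimulated MGE and 301 and 299 in MGE with KCl. The lowest MGE value was thus over 3 times the highest CTX value, and the difference was log2 2.33 ± 0.21 SE, limma adjusted p = 5.4e-07. It kept its call with every other window, peak limit, scaling, pseudocount and filter tried and without any 1 library, with log2 values of 2.01 to 4.11. In Cntn3 3 peak regions were present in every MGE library and absent from every CTX list, at chr6:102228259-102228808, chr6:102272269-102272960 and chr6:102514492-102516343, the longest of them 1852 bp. By the authors' values, the peak with the highest −log10 q in the window reached 5.8 to 12.1 in MGE libraries and 1.6 to 5.9 in CTX libraries.

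Cntn4 and Cntnap4 had nearly the same difference between cultures. Cntn4 held 108 and 89 (unstimulated) then 127 and 128 (KCl) bp per Mb in CTX, and 254 and 179 (unstimulated) then 393 and 376 (KCl) in MGE (log2 1.28 ± 0.16 SE, limma adjusted p = 1.62e-05). Cntnap4, a Caspr protein known from interneuron output synapses, held 138 and 128 (unstimulated) then 69.6 and 73.7 (KCl) in CTX, and 251 and 181 (unstimulated) then 312 and 287 (KCl) in MGE (log2 1.28 ± 0.16 SE, limma adjusted p = 1.77e-05). In both, every MGE library was above every CTX library. Cntnap2, a partner of contactins in axonal potassium channel clustering, was also higher in MGE, with 298 and 283 (unstimulated) then 376 and 441 (KCl) in CTX and 414 and 565 (unstimulated) then 395 and 557 (KCl) in MGE, but here the cultures overlapped (log2 0.46 ± 0.15 SE, limma adjusted p = 0.0281). The call of Cntnap2 was kept in 8 of 11 other settings. It was lost with median scaling, with no filter on low values and with a −log10 q of at least 5. Cntn1 went the other way: 318 and 222 in unstimulated CTX, 250.5 and 246 in CTX with KCl, 141 and 184 in unstimulated MGE and 141 and 191 in MGE with KCl, all MGE values being lower (log2 -0.63 ± 0.17 SE, limma adjusted p = 0.0104). The call of Cntn1 was kept in 9 of 11 other settings, and was lost with equal called bases and with a −log10 q of at least 5. Cntn5, Cntn6 and Cntnap1 did not pass, with log2 differences of 0.16, 0.44 and 0.19.

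**Figure D1:**
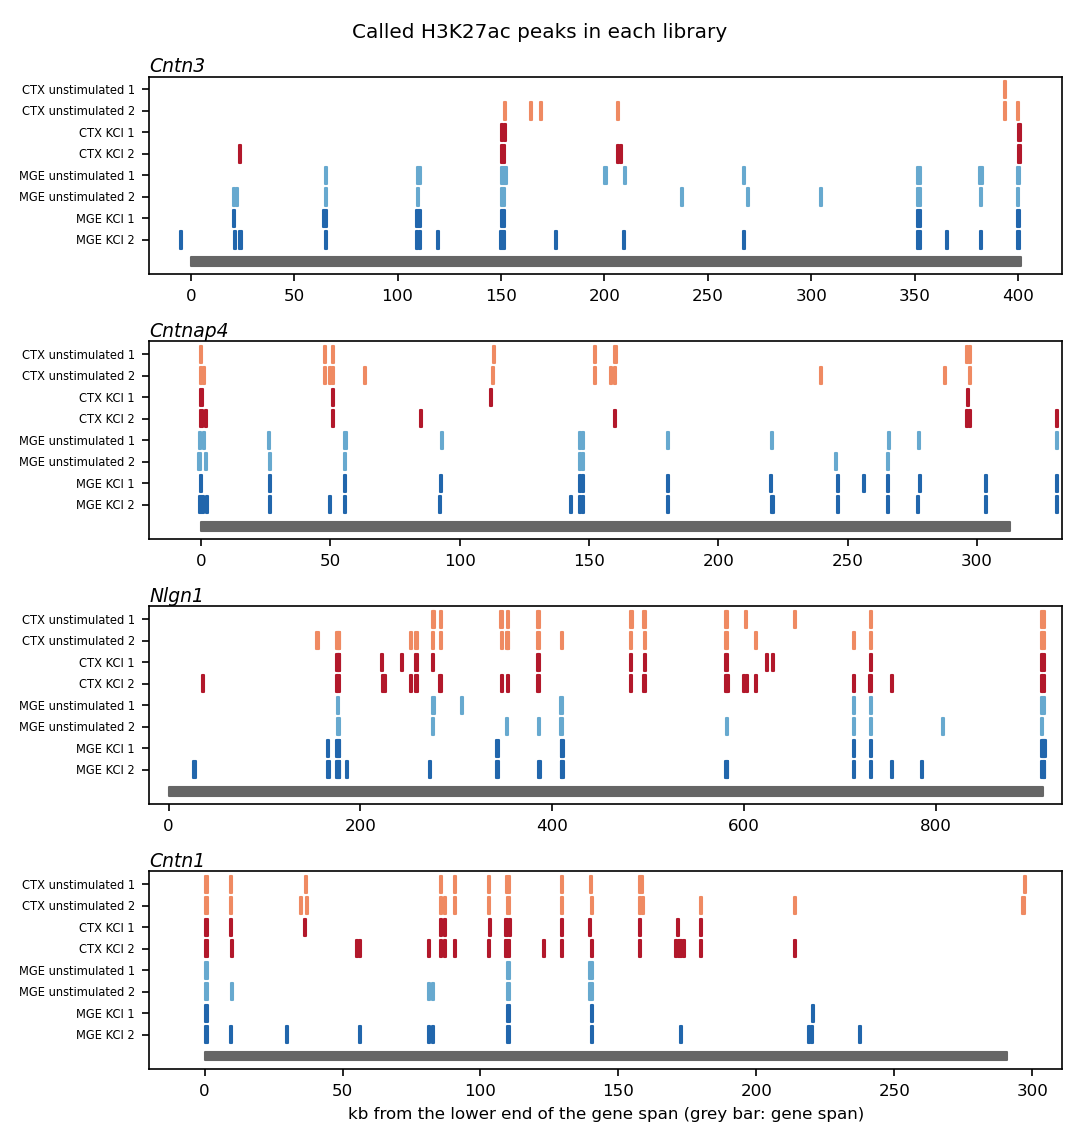
Called peaks in each of the 8 libraries along Cntn3, Cntnap4, Nlgn1 and Cntn1, as kb from the lower end of the gene span, with the span as a grey bar; peaks narrower than 1 in 400 of the span are drawn at that width. Cntn3 shows 3 positions and Cntnap4 shows 5 with a peak in all 4 MGE libraries and no CTX library, while Nlgn1 shows 3 and Cntn1 shows 4 of the reverse kind.

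Among LAR-type receptor phosphatases, presynaptic receptors for Slitrk and other ligands, Ptprf was higher in MGE. It held 60 and 74.4 bp per Mb in unstimulated CTX, 37 and 66.6 in CTX with KCl, 137 and 149 in unstimulated MGE and 126 and 123 in MGE with KCl, with no overlap (log2 1.08 ± 0.20 SE, limma adjusted p = 0.000507). The call of Ptprf was kept in 9 of 11 other settings, and was lost with equal called bases and with a −log10 q of at least 5. Ptprd and Ptprs did not pass, at log2 differences of -0.20 and 0.13. Of their postsynaptic ligands, Slitrk4 held 37.4 and 43.6 (unstimulated) then 69.1 and 47.6 (KCl) in CTX and 83.4 and 70.1 (unstimulated) then 108 and 75.9 (KCl) in MGE, again without overlap (log2 0.68 ± 0.21 SE, limma adjusted p = 0.021). Before division by Mb called, its length did overlap, at 0.88 to 2.13 kb in CTX and 1.48 to 2.43 kb in MGE. The call of Slitrk4 was kept in 7 of 10 other settings. It was lost with equal called bases, with the gene span only and with a −log10 q of at least 5. Slitrk5 held 89 and 57.8 (unstimulated) then 84.4 and 56.4 (KCl) in CTX against 119 and 128 (unstimulated) then 114 and 82.9 (KCl) in MGE, with overlap (log2 0.57 ± 0.20 SE, limma adjusted p = 0.0491). Before division by Mb called, its called length was 2.1 to 2.52 kb in CTX and 2.44 to 2.73 kb in MGE. The call of Slitrk5 was kept in 5 of 11 other settings, and was lost with equal called bases and with the gene span only.

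Slitrk2 was lower in MGE. It had 18.6 and 39 bp per Mb in unstimulated CTX and 39.7 and 43.5 with KCl, no peak in either unstimulated MGE library, and 19.5 and 26.1 in MGE with KCl. Both KCl-treated MGE libraries were above the first unstimulated CTX library, so the cultures overlapped (log2 -1.28 ± 0.31 SE, limma adjusted p = 0.00502, on the scale with 10 added). Its peaks were weak, the highest −log10 q of the authors in a library being 2.4 to 6.5. Slitrk6, below the minimum for testing, was listed at 0 in 3 CTX libraries and at 10.3 in the other, against 12.8 to 33.9 in MGE, where its start had a peak in all 4 libraries. Slitrk1 held 108 and 52.4, then 110.1 and 75.7, then 84.9 and 81.1, then 116 and 95.1 in unstimulated CTX, KCl-treated CTX, unstimulated MGE and KCl-treated MGE, and Slitrk3 ranged from 74.4 to 162 over the 8 libraries. Neither passed, at log2 differences of 0.15 and 0.40. Il1rapl2 held 0 and 40.3 (unstimulated) then 40.7 and 41.6 (KCl) in CTX and 0 and 0 (unstimulated) then 13.8 and 38.8 (KCl) in MGE (log2 -0.88 ± 0.44 SE, limma adjusted p = 0.168), and Il1rapl1 ranged from 49.4 to 97.1 (log2 -0.22).

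Latrophilins are adhesion G protein-coupled receptors that bind teneurins and Flrt proteins. Adgrl3 was higher in MGE, with 240.3 and 172 bp per Mb in unstimulated CTX, 319 and 385 in CTX with KCl, 348 and 379 in unstimulated MGE and 671 and 439 in MGE with KCl (log2 0.71 ± 0.16 SE, limma adjusted p = 0.00263). The second KCl-treated CTX library was above both unstimulated MGE libraries, so the cultures overlapped. With only peaks of a −log10 q of at least 5 the differences of Adgrl3 and Cntn4 turned to -0.66 and -0.48, neither passing. Adgrl2 was lower in MGE, with 69.2 and 158 (unstimulated) then 155 and 163 (KCl) in CTX and 32.9 and 64.9 (unstimulated) then 62.1 and 116 (KCl) in MGE, again with overlap (log2 -0.92 ± 0.25 SE, limma adjusted p = 0.0122). The call of Adgrl2 was lost with equal called bases in each library, at an adjusted p of 0.377, and with a −log10 q of at least 5 its difference was -0.06. Adgrl1 held 90.4 and 89.2, then 61.1 and 81.3, then 92.1 and 82.4, then 69.1 and 48.8 in unstimulated CTX, KCl-treated CTX, unstimulated MGE and KCl-treated MGE, and did not pass (log2 -0.14 ± 0.19 SE, limma adjusted p = 0.631).

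Of the latrophilin ligands, Tenm2 held 519 and 630.2 bp per Mb in unstimulated CTX, 448 and 623 in CTX with KCl, 778 and 788 in unstimulated MGE and 1113 and 1115 in MGE with KCl. No library overlapped across cultures, and the difference was log2 0.75 ± 0.12 SE, limma adjusted p = 0.000172. Flrt1 held 129.7 and 209.6 (unstimulated) then 158 and 183 (KCl) in CTX and 271 and 294 (unstimulated) then 272 and 304 (KCl) in MGE, also without overlap (log2 0.73 ± 0.16 SE, limma adjusted p = 0.00292), in a window that lies inside Macrod1. With a −log10 q of at least 5 the difference of Flrt1 was 0.12 and did not pass. The other teneurins had log2 differences of -0.26 (Tenm4), -0.01 (Tenm3) and 0.40 (Tenm1), and Flrt2 and Flrt3 had -0.51 and -0.03. None of these 5 passed. Elfn1, a postsynaptic protein known for recruiting presynaptic metabotropic glutamate receptors onto interneuron dendrites, held 28.8 and 82.2 in unstimulated CTX, 113 and 116 in CTX with KCl, 158 and 163 in unstimulated MGE and 164 and 174 in MGE with KCl. All MGE values were above all CTX values (log2 1.02 ± 0.22 SE, limma adjusted p = 0.0023). Its relative Elfn2 did not pass (log2 0.21 ± 0.15 SE, limma adjusted p = 0.358).

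**Figure D2:**
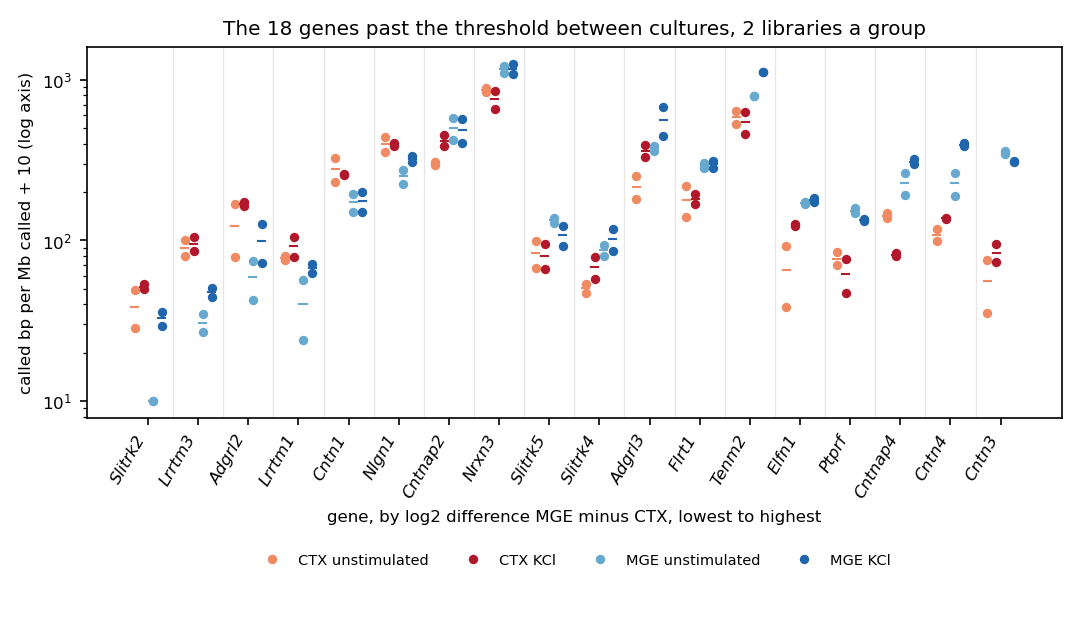
Called bp per Mb called plus 10, on a log axis, in each of the 8 libraries for the 18 genes past the threshold between cultures; points are libraries, short lines are the means of the 2 libraries of a group. The genes run from Slitrk2, with 0 in both unstimulated MGE libraries, on the left to Cntn3, with 25.4 to 85.3 in CTX and 299 to 351 in MGE, on the right.

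Sums over a window hide which peaks differ, so peaks of the 8 lists were also merged where they overlap, a measure added after the data were seen. The 40 windows held 1171 merged peaks, 477 of them in 1 library only and 323 in at least 4. Of the 323, 51 were in every MGE list and absent from CTX, against 6.35% of the 28183 such peaks in all gene windows, and 54 were in every CTX list and absent from MGE, against 11.6%. Those in all 8 libraries numbered 76, against 40.5% of all. At least 1 MGE peak lay in the window of 16 of the 40 members, against 6.58% of all 21627 genes, at least 1 CTX peak in 17, against 12.5%, and both kinds in 10, against 2.02%. The members' windows are longer than those of most genes, so these counts of genes are not like for like. When each list was trimmed to equal called bases, 51 of 189 were MGE peaks, against 9.59% over all gene windows, and 17 were CTX peaks, against 5.01%. With a −log10 q of at least 5, 2 of 75 were MGE peaks, against 2.3%, and 9 were CTX peaks, against 4.77%.

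Peaks of both kinds lay in 10 genes, some with no call for their total. Cntn5, whose total did not pass, had 6 MGE and 9 CTX peaks, 7 of the CTX peaks lying 944 to 1231 kb downstream of its listed start and the MGE peaks from 5.4 kb upstream to 536.5 kb downstream. Ptprd had 2 MGE and 8 CTX peaks, Tenm4 had 1 and 6, Tenm3 had 2 and 1. Tenm2 had 8 MGE and 4 CTX peaks, 3 of the latter lying together 870.5 to 872.6 kb downstream of the listed start. Nrxn3 had 8 and 5, an MGE peak at chr12:89812468-89813121 covering the start printed above. A separate peak, not overlapping it, lay within 500 bp of that start in 1 KCl-treated CTX library. Adgrl3 had 5 and 2, and both kinds occurred 754.7 to 759.8 kb downstream of its listed start, CTX peaks at chr5:81775892-81776622 and chr5:81777163-81777935 and an MGE peak at chr5:81780838-81781999. Cntnap4 had 5 and 1. By contrast Cntn3 and Cntn4 had 3 MGE peaks each and no CTX peak, and Cntn1, Nlgn1, Flrt2 and Lrrtm3 had 4, 3, 3 and 2 CTX peaks and no MGE peak. The CTX peak of Slitrk2, chrX:66648803-66649923, covers its first start.

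**Figure D3:**
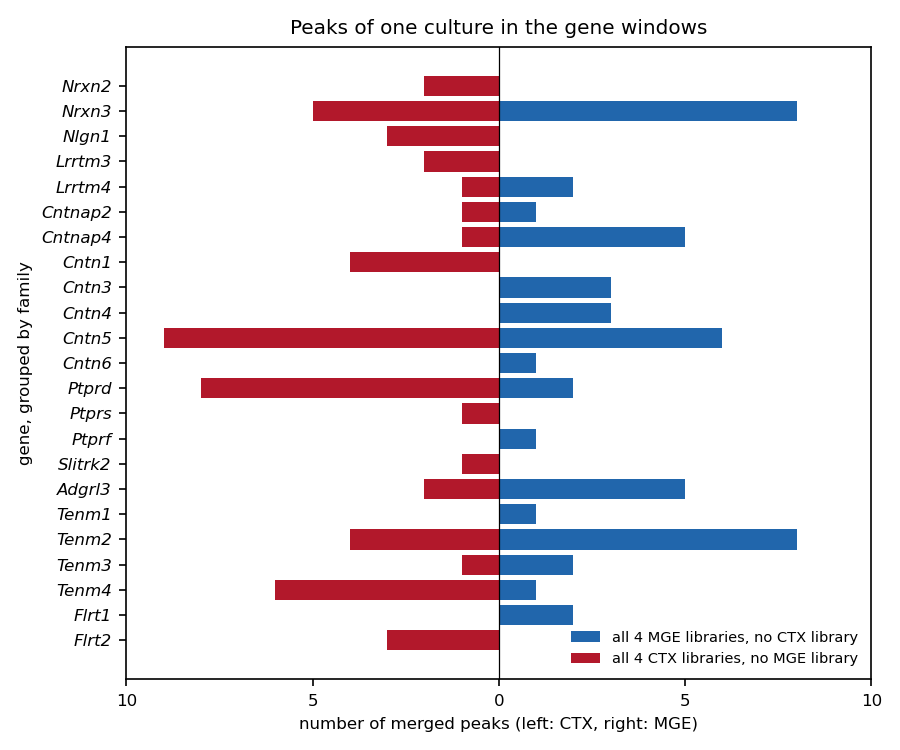
Number of merged peaks called in all 4 libraries of 1 culture and in none of the other, for the 23 genes with any, grouped by family; bars to the right are MGE peaks and bars to the left CTX peaks. Nrxn3 and Tenm2 have 8 MGE peaks each, Cntn5 has 9 and Ptprd 8 CTX peaks, and Cntn5, Nrxn3 and Tenm2 have long bars on both sides.

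A stricter measure divided the genome into bins of 500 bp, called where at least 50% of the bin lay in peaks, and took runs of at least 2 bins. Of such regions, 1 in the windows was in every MGE list and absent from CTX, in Cntn5 at chr9:10853501-10854500, and 1 was in every CTX list and absent from MGE, in Nlgn1 at chr3:25903001-25904000. As single bins these were 39 and 47 of the 1475 bins called in any library, 2.64% and 3.19%, against 1.52% and 3.08% in all gene windows.

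The second comparison asked what 2 h of KCl changed. Over both cultures 4 of 39 members rose, Slitrk2, Tenm1, Adgrl3 and Cntn4, against 3.62% of all genes tested, and 2 fell, Ptprs and Elfn2, against 1.64%. The members' median log2 difference was 0.20, against 0.05 over all genes, but 0.04 against 0.16 with equal called bases in each library. The calls over all genes were 68.8% rises, and 52.7% when libraries were scaled by their median over genes. In both cultures both KCl values exceeded both unstimulated values for 9 members (9.8% of all genes did), namely Cntn4, Cntn6, Slitrk2, Il1rapl2, Adgrl3, Tenm1, Tenm3, Flrt2 and Elfn1. They lay below for 4 (4.98% of all genes), Nrxn2, Ptprs, Adgrl1 and Elfn2. None of the 6 calls was kept in each of the 8 fits that leave out 1 library. The count was 0 without either KCl-treated CTX library, 1 without the first unstimulated CTX or the second KCl-treated MGE library, 2 without the first KCl-treated MGE library, 3 without the second unstimulated MGE library, and 5 without the second unstimulated CTX or the first unstimulated MGE library. With equal called bases in each library 37 members could be tested, Slitrk2 and Il1rapl2 not among them, and 1 passed, Elfn1. As a check of the stimulation, 6 of 8 immediate early genes rose, Arc, Fosb, Nr4a1, Fos, Npas4 and Junb, with a summed value of 492 to 722 bp per Mb unstimulated and 1042 to 1250 with KCl. Among cell type markers Foxp1 and Vim rose and Rbfox3, Snap25 and Flt1 fell, and their part in the members' differences was not tested.

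Adgrl3 had the lowest adjusted p of the 6. Its values rose from 240.3 and 172 to 319 and 385 bp per Mb in CTX and from 348 and 379 to 671 and 439 in MGE, with no overlap in either culture (log2 0.66 ± 0.16 SE, limma adjusted p = 0.0213). Tenm1, a teneurin, went from 65.1 and 64.7 to 84.9 and 128 in CTX and from 83.9 and 85.5 to 141 and 153 in MGE (log2 0.67 ± 0.18 SE, limma adjusted p = 0.0409). Cntn4 went from 108 and 89 to 127 and 128 in CTX and from 254 and 179 to 393 and 376 in MGE (log2 0.59 ± 0.16 SE, limma adjusted p = 0.043). In these 3 genes every KCl library was above both unstimulated libraries of its culture. The differences of Tenm1 and Cntn4 turned to -0.85 and -0.14 with equal called bases, neither passing.

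Slitrk2 went from 18.6 and 39 to 39.7 and 43.5 in CTX, and from no peak in either library to 19.5 and 26.1 in MGE (log2 1.08 ± 0.31 SE, limma adjusted p = 0.0492, on the scale with 10 added). The peaks that appeared in MGE lay at the second start, printed above. That start also had a peak in 1 unstimulated CTX library, and any part of its CRE was not tested. Il1rapl2, an IL-1 receptor accessory protein, had a larger difference but did not pass, going from 0 and 40.3 to 40.7 and 41.6 in CTX and from no peak to 13.8 and 38.8 in MGE (log2 1.48 ± 0.44 SE, limma adjusted p = 0.0568). Its window had no merged peak shared by 4 or more libraries.

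The 2 members that fell are a presynaptic phosphatase and a postsynaptic leucine-rich repeat protein. Ptprs went from 149.9 and 195 to 112 and 145 bp per Mb in CTX and from 220.3 and 214 to 118 and 124 in MGE (log2 -0.60 ± 0.17 SE, limma adjusted p = 0.0434). Elfn2 went from 337 and 231 to 189 and 176 in CTX and from 309.8 and 317 to 234 and 204 in MGE (log2 -0.54 ± 0.15 SE, limma adjusted p = 0.0457). Neither group overlapped in either culture. Counting the gene span alone took both calls away, with adjusted p = 0.157 and 0.138. Next in size were Adgrl1, from 90.4 and 89.2 to 61.1 and 81.3 in CTX and from 92.1 and 82.4 to 69.1 and 48.8 in MGE (log2 -0.41 ± 0.19 SE, limma adjusted p = 0.262), and Nrxn2 (log2 -0.28 ± 0.13 SE, limma adjusted p = 0.248), whose values are given above. Both had all KCl values below the unstimulated ones of their culture but did not pass, and with a −log10 q of at least 5 their differences turned to 0.39 and 0.43. Of Nrxn3, Nlgn1, Nlgn2 and Nlgn3 none passed, at log2 differences of -0.09, 0.18, -0.03 and -0.03.

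In CTX alone limma called none of the 39 members (0.397% of all genes were called), and 10 had an unadjusted p under 0.05, against 1629 of the 14851 genes. The members nearest to the threshold were Cntnap4, with lower values after KCl (adjusted p = 0.147), and Adgrl3 and Elfn1, with higher ones (adjusted p = 0.166 for each). Elfn1 went from 28.8 and 82.2 to 113 and 116 bp per Mb in CTX and stayed between 158 and 174 in MGE. In CTX 1 member, Elfn1, passed with equal called bases, with a mean of at least 2000 called bp per gene tested 2 did, Adgrl3 and Elfn1, and without the second unstimulated CTX library 3 did, Elfn1, Cntn3 and Tenm3.

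In MGE alone 2 members rose (2.09% of all genes did) and none fell (0.896% of all genes did), while 12 had an unadjusted p under 0.05, against 2240 of the 14851 genes. Cntn5, a contactin, went from 486 and 488 to 784 and 726 bp per Mb in MGE (log2 0.62 ± 0.16 SE, limma adjusted p = 0.0452), while in CTX it had 613 and 561 unstimulated and 459 and 541 with KCl. Slitrk2 had no peak in unstimulated MGE and 19.5 and 26.1 with KCl (log2 1.71 ± 0.44 SE, limma adjusted p = 0.0416), a size that depends on the 10 added. Slitrk2 alone passed without the second unstimulated CTX library, and Slitrk2 with Il1rapl2 without the first. Without the first unstimulated MGE library Cntn4 and Lrrtm1 passed in place of them, and without any of the other 5 libraries no member did. With equal called bases 37 members could be tested, Slitrk2 not among them, and none passed in MGE.

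The response to KCl was then compared between cultures. The interaction contrast of limma called none of 39 members, against 0.0808% of all genes, and 4 had an unadjusted p under 0.05, against 960 of the 14851 genes. Cntnap4 had the largest interaction of the 39 by size and by p. It went from 138 and 128 to 69.6 and 73.7 bp per Mb in CTX and from 251 and 181 to 312 and 287 in MGE, lower in both treated CTX libraries and higher in both treated MGE libraries (log2 1.28 ± 0.33 SE, limma adjusted p = 0.233). Cntn5 also had opposite directions (log2 0.85 ± 0.23 SE, limma adjusted p = 0.29), and with a mean of at least 2000 called bp per gene tested it was the 1 member whose interaction passed. Tenm2 and Elfn1 followed in order of p, at log2 differences of 0.61 and -0.99 (limma adjusted p = 0.61 and 0.717).

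**Figure D4:**
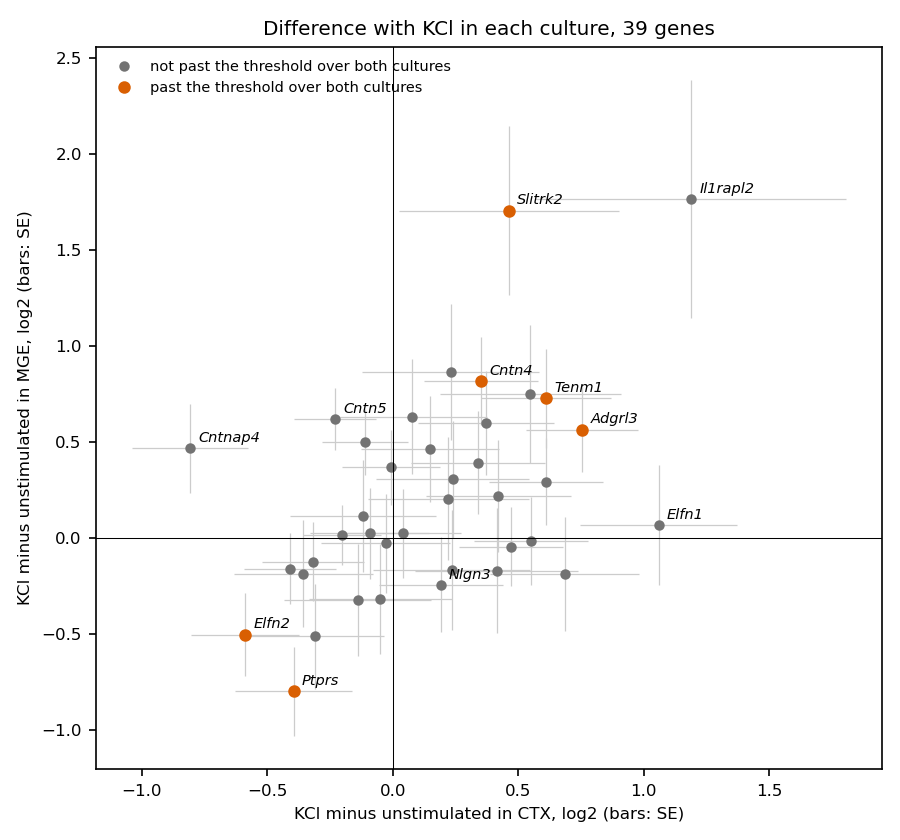
Log2 difference KCl minus unstimulated in CTX (horizontal) and in MGE (vertical) for the 39 genes tested, with standard errors as grey bars; the 6 genes past the threshold over both cultures are orange. Slitrk2, Tenm1, Adgrl3 and Cntn4 lie to the upper right and Ptprs and Elfn2 to the lower left, while Cntnap4, at -0.81 in CTX and 0.47 in MGE, and Cntn5 lie in the upper left.

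Peaks that came or went with KCl in both cultures were few. Of the 323 merged peaks in at least 4 libraries, 6 were called in all 4 KCl and no unstimulated library, against 1.76% of all such peaks, and 1 in all 4 unstimulated and no KCl library, against 0.326%. The 6 lay in Cntn5 (chr9:9703363-9703784 and chr9:10463909-10464465), Adgrl3 (chr5:81358362-81358996), Tenm2 (chr11:36927160-36927886, 16.7 kb downstream of its listed start), Flrt1 (chr19:7092137-7092922, inside Macrod1) and Flrt2 (chr12:95738059-95739154). The 1 lost lay in the flank of Nrxn2, at chr19:6416444-6416908. With a −log10 q of at least 5 no peak of either kind was counted.

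By the stricter bins, 2 regions were gained in CTX, called in both KCl and neither unstimulated library, 3.8 kb above the Elfn1 span (chr5:139978501-139979500) and in Slitrk1 (chr14:108911001-108912000, 2.7 kb downstream of its start). In MGE 5 were gained: beside the second listed start of Tenm4 (chr7:96211501-96212500), a start with a peak within 500 bp in all 8 libraries, in Cntn5 (chr9:10645001-10646000), in Nrxn3 (chr12:89075001-89076000) and 2 in Flrt1 (chr19:7092001-7093000 and chr19:7136501-7137500). Lost regions were 1 in CTX, in Elfn2 (chr15:78674501-78675500), and 1 in MGE, in Tenm4 (chr7:96731501-96732500). A peak of the opposite group touched part of the Slitrk1, Tenm4, Cntn5 and Elfn2 regions in 1 or 2 libraries, and none touched those of Elfn1, Nrxn3 and Flrt1. As single bins the gained shares were 6.13% in CTX and 8.56% in MGE of the bins called in any library of that culture, against 6.61% and 8.66% in all gene windows. The lost shares were 3.46% and 2.97%, against 3.11% and 3.47%. The first start of Tenm4, a teneurin whose values were 626 and 849 (unstimulated) then 508 and 669 (KCl) in CTX and 679.8 and 475 (unstimulated) then 569 and 478 (KCl) in MGE, had a peak in both KCl-treated MGE libraries and in no other.

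Other synaptic adhesion and organiser genes were also listed by function, 45 in all, of which 42 were tested. Between cultures 7 were higher in MGE and 16 lower, against 10.6% and 12.6% of all genes tested. The largest differences upward were in Lgi2 (log2 1.57 ± 0.18 SE), Adam23 (1.26 ± 0.26), Lgi1 (0.98 ± 0.17) and L1cam (0.75 ± 0.23), the first 3 a ligand, a receptor and a ligand of the LGI-ADAM complex. Their relatives Lgi3 (-0.85 ± 0.31, limma adjusted p = 0.0597) and Adam22 (0.12 ± 0.15, limma adjusted p = 0.586) did not pass. The largest downward were in C1ql3 (-2.29 ± 0.35), Igsf21 (-2.07 ± 0.18), Ntng2 (-2.03 ± 0.41) and C1ql1 (-1.67 ± 0.24), which include secreted C1q-like organisers and a netrin-G. With KCl over both cultures Ntng1 (0.75 ± 0.20), Mdga2 (0.60 ± 0.13), a neuroligin-binding inhibitor, and Lrrc4c (0.48 ± 0.13) rose, while Cntn2 (-1.10 ± 0.22), Igsf21 (-0.99 ± 0.18) and Igsf9b (-0.62 ± 0.17) fell. Of all genes tested 3.62% rose with KCl and 1.64% fell. The median differences of the 42 genes were -0.16 between cultures and 0.01 with KCl.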

How the data were processed

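The deposited files are 8 lists of broad H3K27ac peaks, 1 per library. The submitters' processing notes name cutadapt 1.18, Bowtie2 2.3.3, MACS3 3.0.0a7, deepTools 3.4.3 and the build mm10. Of settings, input controls and duplicates nothing is given in the sources used here. The authors' peak caller wrote a score for each peak, which was not used. The deposited fold enrichment and −log10 p and −log10 q of each peak were also written by it; the −log10 q served as a limit and to rank peaks within a list, and the others support no result.

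Called bp in each gene span (RefSeq, GRCm38.p6) and 20 kb to each side were divided by Mb called in the library on chromosomes 1 to 19 and X, leaving out 29 peaks elsewhere. Log2 of the value plus 10 was fitted with limma 3.58.1 (R 4.3.3), all 8 libraries sharing 1 estimate of the spread, for 14851 genes with a mean of at least 500 called bp, with Benjamini-Hochberg adjustment. In limma each gene's estimate was drawn toward a trend over all genes tested. The SEs and p-values thus rest in part on the spread of other genes. An exact test of 2 libraries against 2 cannot go below p = 0.33. Read depth is unknown, so no counting interval could be given. Members and lists were chosen with earlier results of these data known, and the marker lists and the further synaptic list give counts only. From the marker lists 1 gene is not reported here. Given library by library were members past the threshold in any contrast, the 4 largest differences in each direction with KCl and between cultures, the neurexins and neuroligins, and members with a region that differed by bins. Distances to a start run from the middle of a peak or region. Counts of merged peaks were added after the data were seen. Alternatives changed the window, peak limit, scaling, pseudocount, filter, replicate block and libraries used.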

Additional observations from a re-analysis of the deposited data

Results flagged for a closer look

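In Cntnap4, Cntn5 and Nlgn3 both KCl-treated libraries lay on one side of the unstimulated ones in CTX and on the other side in MGE. The interaction, the log2 difference in MGE minus that in CTX, was 1.28 for Cntnap4 (limma adjusted p = 0.233), 0.85 for Cntn5 (limma adjusted p = 0.29) and -0.43 for Nlgn3 (limma adjusted p = 1.0). None passed the adjusted threshold. Groups of 2 libraries are too small for a check of single libraries that stand apart.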

How the results depend on the processing

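Between cultures 18 members passed. Their count was 2 with a −log10 q of at least 5 and 11 to 17 without 1 library. With KCl over both cultures 6 passed, against 3 for the gene span only or without other genes' spans, 2 with 5 added in place of 10, 1 with equal called bases or median scaling, 0 with a −log10 q of at least 5 or no filter, and 0 to 5 without 1 library. In MGE alone 2 passed, against 1 with 5 added or no filter, 0 with a −log10 q of at least 5, equal called bases or median scaling, and 0 to 2 without 1 library. In CTX alone 0 passed, against 1 with equal called bases, 2 with a mean of at least 2000 called bp and 0 to 3 without 1 library. For the interaction 0 passed, against 1 with that filter. Differences that changed sign were, with KCl, Cntn4 (-0.14) and Tenm1 (-0.851) with equal called bases and Adgrl1 (0.391) and Nrxn2 (0.426) with a −log10 q of at least 5, and between cultures Adgrl3 (-0.66) and Cntn4 (-0.484) with that limit. Genes tested numbered 13780 with equal called bases and 12631 with the stricter limit, against 14851. Members tested numbered 37 and 36, against 39, and Slitrk2 was tested in neither setting. The cause of the changes was not tested.

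Over all genes, calls between cultures numbered 3452, and 283 with a −log10 q of at least 5. Calls with KCl over both cultures numbered 782, against 0 with that limit, 437 for the gene span only, 444 with median scaling, 507 with 5 added, 511 with no filter and 1175 with 30 added. In MGE they numbered 443, against 9 with that limit, 99 with equal called bases, of which 51 were rises and 48 falls, against 310 and 133 of the 443, 162 with median scaling and 671 with 30 added.

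Regions of at least 2 bins became 60 gained and 34 lost in CTX, 70 gained and 25 lost in MGE, 38 MGE only and 46 CTX only as single bins. With equal called bases they were 6, 3 and 3 (gained in CTX, lost in CTX, gained in MGE) and 2 CTX only. With a −log10 q of at least 5 they were 0 MGE only and 3 CTX only. Without 1 library they ranged from 2 to 22 gained and 1 to 18 lost in CTX, 8 to 38 gained and 2 to 4 lost in MGE, 1 to 5 MGE only and 1 to 4 CTX only. Members whose groups did not overlap were, with a −log10 q of at least 5, 2 above and 2 below with KCl in both cultures. For all MGE against all CTX libraries they were 2 above and 1 below, the last being 2 with equal called bases and 4 to 8 without 1 library. Shares over all genes were not computed for these settings. Merged peaks with that limit were 2 MGE only, 9 CTX only, 0 KCl only, 0 unstimulated only and 17 in all 8 libraries. With equal called bases they were 17 CTX only, 2 KCl only, 2 unstimulated only and 49 in all 8. Without 1 library they ranged from 55 to 90 CTX only, 6 to 16 KCl only and 1 to 3 unstimulated only.

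With the replicate block 5 members passed with KCl over both cultures, 2 in MGE (Ptprs and Cntn4 in place of Slitrk2 and Cntn5), 0 in CTX and 18 between cultures. Same-numbered libraries deviated together with r = 0.325 in CTX and 0.034 in MGE, 0.24 between cultures with KCl and -0.12 unstimulated. The labels do not say whether same-numbered libraries were prepared together. These correlations cannot decide it, since each rests on a single difference between replicates in either group. With the unstimulated MGE numbers crossed, an alternative chosen after seeing the data, 19 members passed between cultures and 66 genes, none of them a member, with KCl over both cultures. Of the values of single named genes under all alternatives, 394 kept direction and side of the threshold, 162 kept direction but lost the call, 6 gained one and 6 changed sign.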
